A study of Homo sapiens with 2 samples.

Results

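The genes described here are the protein-coding ZNF genes of chromosome 19, defined as genes whose symbol is ZNF followed by digits and at most 1 further letter. The GENCODE annotation held 246 such genes, of which 243 had a recorded GRCh38 position, among 1471 placed protein-coding genes of the chromosome and 19856 in all. The remaining 1228 genes of the chromosome served for comparison. OTX2-bound DNA was measured by chromatin immunoprecipitation sequencing (ChIP-Seq) in tumorspheres of D283, an established medulloblastoma cell line, in which sheared chromatin is pulled down with an antibody and sequenced. There was 1 OTX2 ChIP library (antibody ab21990) and 1 input library without antibody, both from OTX2+ control tumorspheres. The paper calls the tumorspheres used for ChIP-Seq OTX2-high, its term for scramble siRNA controls. The files therefore give no replicate error and no comparison of conditions, and all statements below describe a single list of peaks. Genes are not replicates, and duplicated genes share sequence and peaks, so no test was run between lists of genes. After removal of duplicates the ChIP library held 61259377 fragments and the input library 22521186. Peaks had been called by the authors at a q-value cutoff of 0.05, and 2488 of 137412 lay on chromosome 19. The summit is the highest point of a peak. Its height is given as the number of ChIP fragments covering it, and its fold enrichment as the ratio of that height to the local input, on a common scale. The local input had a floor of 3.98 on the scale of the deposited pileup. At this floor were 48.9% of the peaks of chromosome 19 and 32.9% of all peaks. For these peaks fold enrichment depends on the number of fragments alone.

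OTX2 is a homeodomain transcription factor of the developing brain that binds the sequence TAATCC. Most ZNF genes of chromosome 19 encode C2H2 zinc finger proteins, many with a KRAB domain, and arose by repeated tandem duplication that left them in clusters. KRAB proteins bind DNA through their fingers and recruit the corepressor TRIM28, which brings the histone methyltransferase SETDB1 and heterochromatin proteins to silence transposable elements and other targets. The long last exon that encodes the fingers is itself known to carry this repressive chromatin in many ZNF genes.

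An OTX2 peak near the transcription start site (TSS) was found at most ZNF genes of chromosome 19. Of 243 genes, 166 (68.3%) had at least 1 bp of a peak between 5 kb upstream and 2 kb downstream of the TSS, against 56.8% of all protein-coding genes of the chromosome and 57.2% of all protein-coding genes. Among the other genes of the chromosome, 669 of 1228 (54.5%) had one. ZNF genes on other chromosomes had almost the same share, 179 of 261 (68.6%), and of 18 further zinc finger genes of chromosome 19 with ZFP, ZSCAN, ZIM, ZIK or ZKSCAN symbols or longer ZNF symbols, 14 had a peak. The 3 ZNF genes without a recorded position were placed by RefSeq instead. There ZNF714 had 3 peaks, the highest at a fold enrichment of 7.94, ZNF43 had 1 peak with a fold enrichment of 11.3 and 82 fragments at 149 bp upstream, and ZNF442 had 0.

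Promoter sequences are shown first, to set copies of the same stretch with and without a summit side by side. RefSeq (GRCh38.p14) gave 265 promoter sequences, from 250 bp before to 50 bp after the start, for 213 of the ZNF genes. Promoters of ZNF91, a repressor of SVA retrotransposons, ZNF93, a repressor of L1 elements, and ZNF737 share a run of 17 bases, printed in capitals with 12 bases on either side, 5′ to 3′ on the strand of the gene. The run was searched after these promoters had been seen. It stands in the promoters of 12 ZNF genes of chromosome 19 and in 0 of the 1258 promoters of other genes of the chromosome, and 12 of 21461 promoters in all hold it. The first 5 sequences come from promoters with an OTX2 summit inside the 300 bp and the last 5 from promoters without one.
ZNF737, chr19:20565885-20565925, minus strand: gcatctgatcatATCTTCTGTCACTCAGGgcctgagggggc
ZNF91, chr19:23395576-23395616, minus strand: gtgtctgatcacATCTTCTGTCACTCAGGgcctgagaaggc
ZNF93, chr19:19900804-19900844, plus strand: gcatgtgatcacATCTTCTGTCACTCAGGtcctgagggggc
ZNF431, chr19:21141895-21141935, plus strand: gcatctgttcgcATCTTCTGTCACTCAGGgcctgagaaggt
ZNF493, chr19:21396991-21397031, plus strand: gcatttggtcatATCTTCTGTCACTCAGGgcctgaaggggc
ZNF85, chr19:20923112-20923152, plus strand: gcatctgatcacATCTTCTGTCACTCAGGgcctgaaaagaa
ZNF90, chr19:20077860-20077900, plus strand: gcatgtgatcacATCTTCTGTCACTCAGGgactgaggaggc
ZNF208, chr19:22011042-22011082, minus strand: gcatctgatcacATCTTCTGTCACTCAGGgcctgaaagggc
ZNF492, chr19:22634177-22634217, plus strand: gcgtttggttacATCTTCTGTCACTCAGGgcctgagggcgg
ZNF726, chr19:23914740-23914780, plus strand: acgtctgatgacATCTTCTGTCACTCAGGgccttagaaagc

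Of these 12 promoters, 7 held an OTX2 summit, the others being ZNF675 and ZNF681. ZNF91, ZNF93 and ZNF737, from which the run was taken, are among the 7. Of ZNF promoters without the run, 43.9% held a summit. The 7 summits lay 2 to 95 bp from the centre of the shared run (median 24 bp), and 5 of the 7 were within 50 bp. The strongest summits of all ZNF genes with a peak had a median position of −82.5 bp from the TSS (negative upstream). Distances to other promoter positions were not measured, so a special closeness to the run cannot be read from these values. Fold enrichment over input at these summits differed between the copies. It was 17.1 at ZNF737 (138 fragments), 5.23 at ZNF675 (44), 5.17 at ZNF431 (83), 4.69 at ZNF91 (56), 4.03 at ZNF681 (26), 3.38 at ZNF493 (40) and 3.07 at ZNF93 (53). Thus nearly identical promoter stretches occurred both with a strong summit and with none. Reads from such copies can align to more than 1 place, and the treatment of such reads is not given in the sources used here, so its part in these values was not tested.

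The OTX2 motif was uncommon in these promoters. TAATCC or TAATCT, searched on both strands and differing from each other in the last letter, occurred in 22 of 265 ZNF promoters (8.30%), in 7.15% of promoters of other genes of the chromosome and in 10.6% of all promoters. Summits lay in 118 of the 265 ZNF promoters (44.5%) against 20.3% of promoters of other genes of the chromosome and 22.6% of all. Among ZNF promoters with a summit 10.2% held the motif, and among those without a summit 6.80% did. Over all promoters the shares were 15.9% and 9.05%. In 12 ZNF genes a summit and a motif stood in the same promoter, at a median distance of 18.5 bp, and 8 of the 12 lay within 50 bp. A promoter of 300 bp itself limits this distance. No such distances were measured for promoters of other genes, so a difference from them cannot be read from these values. The 60 bases around the summit are printed for 5 of these, with the motif or its reverse complement in capitals. ZNF491 is printed by the rule for named genes. ZNF574 is also named by that rule, for a peak inside the gene, and the other 3 were chosen after their values were seen.
ZNF491, chr19:11798378-11798437, plus strand: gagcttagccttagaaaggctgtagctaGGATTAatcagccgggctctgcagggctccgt
ZNF574, chr19:42075916-42075975, plus strand: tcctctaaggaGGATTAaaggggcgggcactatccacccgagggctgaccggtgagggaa
ZNF101, chr19:19668641-19668700, plus strand: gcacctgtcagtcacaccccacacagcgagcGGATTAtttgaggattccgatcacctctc
ZNF77, chr19:2945060-2945119, minus strand: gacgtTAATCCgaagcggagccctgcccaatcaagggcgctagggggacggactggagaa
ZNF625, chr19:12156865-12156924, minus strand: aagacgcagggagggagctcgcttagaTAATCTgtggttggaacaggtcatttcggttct

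At ZNF491 the summit lay 0.5 bp from the centre of the motif and the fold enrichment was 27.5 (185 fragments). At ZNF574 the distance was 5.5 bp and the fold enrichment 24.7 (221 fragments). ZNF101 had a distance of 3.5 bp and a fold enrichment of 11.9 (79 fragments), ZNF77 22.5 bp and 9.07 (122 fragments), and ZNF625 0.5 bp and 4.13 (45 fragments). A distance of 0.5 bp thus went with both the highest and the lowest fold of these 5 promoters. Most of the 5 were chosen after their values were seen, so no relation over all such promoters can be read from them. Most ZNF promoters with a summit, 106 of 118, held neither form of the motif.

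A different short sequence was frequent. CCGGAAG, the core of sites bound by ETS family factors, was searched on both strands after the promoters had been seen. Its first letters, CC, can be the last of TAATCC. It occurred in 108 of 265 ZNF promoters (40.8%), in 13.4% of promoters of other genes of chromosome 19 and in 13.0% of all promoters. Among ZNF promoters with the core 50.0% held an OTX2 summit, and among those without it 40.8% did. For the other genes of the chromosome the shares were 38.1% and 17.5%, and over all promoters 42.4% and 19.6%. A summit was thus more frequent in ZNF promoters than in those of the other genes of the chromosome in both classes. Some of these promoters share a longer run. The 19 bases CGCAAACCCGGAAGCGGAT, which hold the core, stood in the promoters of ZNF611, ZNF808, ZNF83 and ZNF845 and in no other of the 21461 promoters. This run was taken from the promoters of ZNF611, ZNF808 and ZNF83, and these are the 3 that held a summit. The summits lay within 31 bp of the centre of the run, with fold enrichments of 5.73 at ZNF611, 5.51 at ZNF808 and 7.08 at ZNF83. Here too distances to other promoter positions were not measured. The promoter of ZNF845, the other copy, held none, and 44.1% of ZNF promoters without the run held one. At ZNF83 the start used is RefSeq's, and the GENCODE window of that gene held no peak. ZNF promoters also had a lower GC content, with a median of 60.3% against 64.3% for the other genes of the chromosome.

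The summits of ZNF genes lay close to the TSS. The strongest peak in the window had its summit at a median distance of 144 bp (quartiles 68.25 and 556.25 bp), against 467 bp for the other genes of the chromosome, 306 bp for ZNF genes elsewhere and 600 bp for all protein-coding genes. The summit was within 500 bp in 120 of 166 ZNF genes (72.3%) and in 346 of 669 other genes (51.7%). The 500 bp just upstream of the TSS held 43.2 summits per 100 ZNF genes and 25 per 100 other genes, and the first 500 bp downstream held 11.9 and 9.20. ZNF genes were also higher from 500 to 1000 bp downstream, with 8.23 against 4.89. The order was the opposite from 1000 to 1500 bp downstream, with 3.29 against 4.32, and from 2000 to 2500 bp, with 0.41 against 3.50. It was also the opposite from 500 to 1000 bp upstream, with 2.88 against 5.86. Of the 166 strongest summits, 118 were upstream of the gene, 24 in an intron, 23 in an untranslated exon and 1 in a coding exon. Upstream summits were about as frequent among the other genes, 72.2% against 71.1% for ZNF genes.

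**Figure D1:**
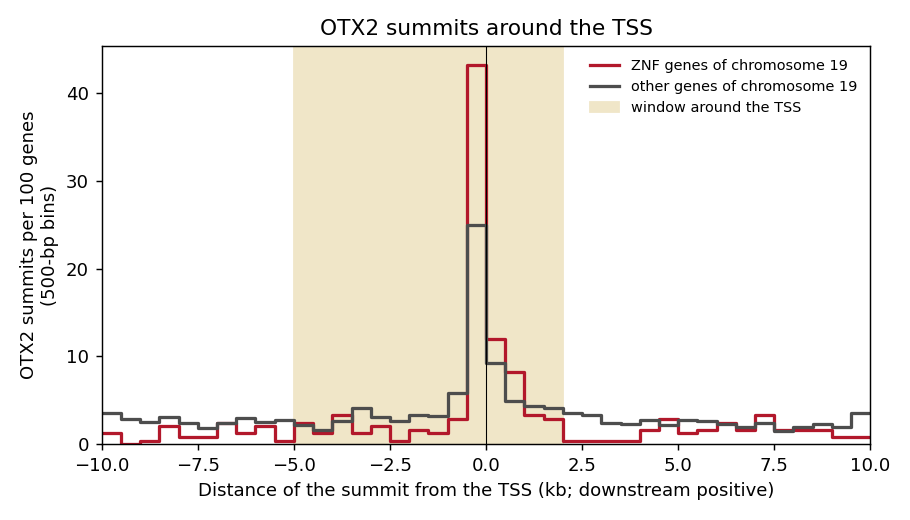
OTX2 summits per 100 genes in bins of 500 bp over the 10 kb on either side of the TSS, for ZNF genes and other genes of chromosome 19, with the counted window shaded. The bin just upstream of the TSS reaches 43.2 for ZNF genes and 25 for other genes, and outside it both lines stay below 12.

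Peaks near ZNF genes were single and of moderate height. Among the 166 genes with a peak, 130 had 1, 29 had 2 and 7 had 3, so that 21.7% had more than 1, against 36.3% of the other genes with a peak. The strongest peak had a median of 46 ChIP fragments at its summit (quartiles 33 and 66.75, range 15 to 222), compared with 54 for the other genes. Median fold enrichment was 5.59 against 6.51, and 6.25 for ZNF genes on other chromosomes. The median input level implied at the summit was 5.00 on the scale of the deposited pileup for ZNF genes and 4.45 for the others, and its part in the lower fold was not tested. A fold enrichment of at least 5 was reached by 104 ZNF genes (42.8%; 38.1% over the chromosome) and by 37.1% of the other genes. At a fold of at least 10 the order turned, with 23 ZNF genes (9.47%; 13.4% over the chromosome) against 14.2%. The lowest strongest peak was that of ZNF671, with 15 fragments and a fold enrichment of 2.41.

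Within 500 bp of the TSS the strongest ZNF peaks had a median fold of 5.33, and 10 of 120 (8.33%) reached a fold of 10. Beyond 500 bp the median was 6.67, and 13 of 46 (28.3%) reached it. For the other genes these shares were 21.4% and 31.0%. The gap between the lists in strong peaks was thus wider at the promoter than in the rest of the window.

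**Figure D2:**
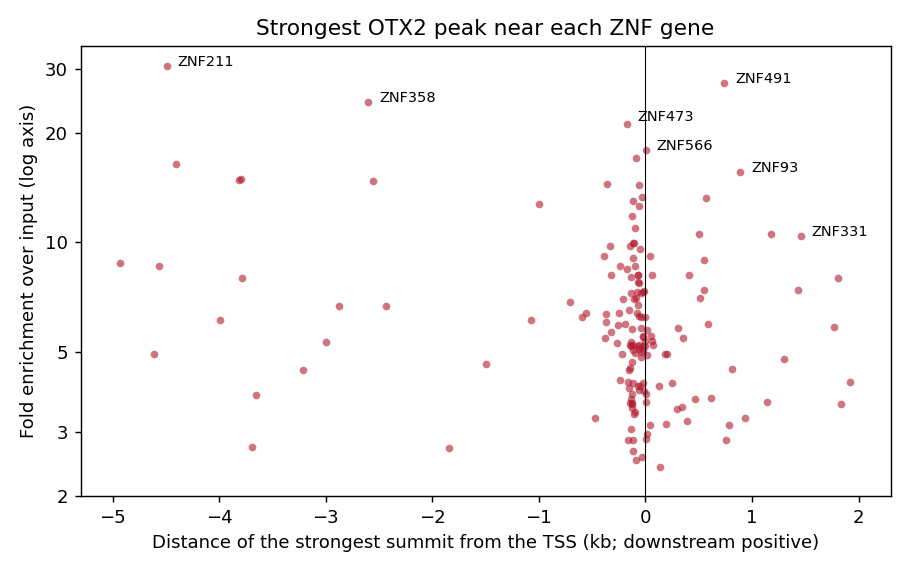
Each point is a ZNF gene of chromosome 19 with a peak in the window, placed by the distance of its strongest summit from the TSS and its fold enrichment on a log axis. Of 166 points 120 lie within 500 bp of the TSS, and the 3 highest, ZNF211, ZNF491 and ZNF358, lie outside that range.

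The 10 ZNF genes with the highest fold enrichment reached 14.9 to 30.6, and in 7 of them this peak had its summit over 500 bp from the TSS. ZNF211 had the highest, with a fold of 30.6 and 206 fragments (exact Poisson 95% interval 179 to 236, counting error only) at 4493 bp upstream. ZNF491 followed with 27.5 (185 fragments, interval 159 to 214) at 741 bp downstream, in an intron of the GENCODE gene and inside the RefSeq promoter printed above. ZNF358 had 3 peaks, with folds of 24.3 at 2602 bp upstream (194 fragments), 13.8 at 867 bp and 5.31 at 4435 bp. All of these distances were upstream, and the intervals of these 3 leading genes overlap.

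ZNF473, which encodes a component of the U7 snRNP that processes histone pre-mRNA, had a fold of 21.1 (142 fragments) at 177 bp upstream, between it and VRK3, a gene on the opposite strand. ZNF566 had 17.9 (160 fragments) at 2 bp from the TSS. ZNF737 had 17.1 (138 fragments) at 86 bp upstream. ZNF296, which is linked to pluripotency factors, had 3 peaks. Its strongest, 16.4 (115 fragments), lay 4407 bp upstream but 1597 bp from the TSS of MARK4, a microtubule-associated kinase, and a second of 11.1 (74 fragments) lay 170 bp upstream of ZNF296 itself. ZNF93 had 15.6 (147 fragments) at 891 bp downstream and a weaker peak of 3.07 (53 fragments) at 113 bp upstream, the one at the shared run. ZNF626 and ZNF675, the latter known as an inhibitor of TRAF6 signalling, both had a fold of 14.9, at 3793 and 3811 bp upstream, with 222 and 104 fragments. The input implied at the summit was 10.0 at ZNF626 and 4.21 at ZNF675. ZNF738 and ZNF570 also had 3 peaks each, with highest folds of 14.8 and 10.5, and so did ZNF580 with 6.67.

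A list of 11 ZNF genes picked for a known role ranged widely in fold, and 4 of them reached 10, namely ZNF93, ZNF296, ZNF331 and, placed by RefSeq, ZNF43. That fold was reached by 9.47% of all placed ZNF genes and by 13.4% of the genes of the chromosome. ZNF91 had a fold of 4.69 (56 fragments) at 129 bp upstream and a second peak of 3.44. ZNF611, which also binds SVA elements, had 5.73 (100 fragments) at 12 bp. ZNF274, which recruits SETDB1 to the finger-encoding exons of ZNF genes, had 3.16 (33 fragments) at 192 bp downstream. ZNF331, an imprinted gene, had 10.4 (98 fragments) at 1460 bp downstream. ZNF536, a repressor of neuronal differentiation, had 6.84 (45 fragments) at 712 bp upstream. ZNF568, whose mouse counterpart silences a placental Igf2 transcript, had 5.44 (43 fragments) at 352 bp, in the window of ZNF829 as well. ZNF649 had 3.83 (27 fragments), and ZNF382, a silenced gene in several tumours, had 3.29 (21 fragments) from a peak nearer to ZNF529. With ZNF93, ZNF296 and, by RefSeq, ZNF43, all 11 genes of this list had a peak, beside 68.3% of all ZNF genes and 56.8% of the genes of the chromosome. The list was chosen with earlier results of these data known and leaves out others with known roles, such as ZNF473 and ZNF675.

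Peaks were seldom shared between ZNF genes. The windows of the 243 genes held 196 distinct peaks, of which 13 lay in the windows of 2 ZNF genes, and 18 ZNF genes had such a peak. The TSS nearest to the strongest summit was that of the ZNF gene itself in 149 of 166 cases (89.8%), of another ZNF gene of the list in 7, and in 10 of a gene outside the list, among them MBD3L1, MARK4, DEDD2, the read-through gene ZNF559-ZNF177 and records without a symbol. Genes with an oppositely directed TSS within 1 kb had a peak more often in both lists, 17 of 19 ZNF genes (89.5%) and 165 of 197 other genes (83.8%), against 66.5% and 48.9% of those without. Windows overlapping that of another gene were less frequent among ZNF genes, 25.9% against 43.5%. Among genes with a window of their own, 117 of 180 ZNF genes (65.0%) and 311 of 694 other genes (44.8%) had a peak, a wider gap than over all genes.

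The difference in the share near the TSS was larger in shorter genes. ZNF genes had a median length of 25706 bp against 13946.5 bp for the other genes. Up to 10 kb, 21 of 25 ZNF genes (84.0%) and 49.3% of other genes had a peak near the TSS. From 10 to 20 kb the shares were 70.6% and 52.9%, and from 20 to 40 kb 68.0% and 61.1%. Above 40 kb they were 58.0% and 59.9%, so by this count the order turned among the longest genes. The count used the 5′ end of the gene record as the TSS. ZNF112, ZNF429 and ZNF83, all above 40 kb, had no peak there but a summit in a RefSeq promoter. Shares by length were not counted at other starts.

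ZNF genes were divided by position, joining genes whose TSS lay within 500 kb of the next ZNF gene. This gave 20 groups, of which 10 had at least 5 ZNF genes and held 229 of the 243. In these 10 the share with a peak ran from 53.8% to 84.6%. The highest was at chr19:36214602-37817300, from ZNF146 to ZNF573, where 22 of 26 ZNF genes and 6 of 6 genes between them had a peak. Its strongest were ZNF566 and ZNF260, with folds of 17.9 and 14.5. The lowest was at chr19:51571283-53519527, from ZNF175 to ZNF331, where 21 of 39 ZNF genes (53.8%) had a peak, the median fold was 4.48 with 31 fragments, and 3 of 15 other genes (20.0%) had a peak. ZNF350 led there with 12.6, and the genes without a peak in the window included ZNF160, ZNF432, ZNF480, ZNF528 and ZNF765. Of these, ZNF432 and ZNF765 had summits elsewhere in the gene. In both places the share of the neighbours was high or low along with that of the ZNF genes, though in the second it was well below theirs.

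Over all groups, 60 of 119 genes lying between ZNF genes (50.4%) had a peak, compared with 54.9% of the genes outside. ZNF genes stood well above their neighbours in the ZNF414 to ZNF846 group, with 76.9% against 33.3%, and in the ZNF628 to ZNF835 group, with 81.25% against 43.5%. The ZNF175 to ZNF331 group was alike in this, with 53.8% against 20.0%. ZNF genes stood below their neighbours between ZNF575 and ZNF180, with 65.2% against 78.6%. The same order held from ZNF146 to ZNF573, with 84.6% against 100% of 6 neighbours, and from ZNF101 to ZNF254, with 62.9% against 66.7% of 3. From ZNF653 to ZNF490 the shares were near each other, 70.8% and 69.2%. The largest group, ZNF264 to ZNF446 at chr19:57191500-58474017, had a peak at 30 of 43 ZNF genes (69.8%) and 11 of 22 neighbours (50.0%). Its members with a peak included ZNF211, ZNF530 with a fold of 14.4, ZNF548 with 13.3 and ZNF416 with 13.0, while ZNF135, ZNF154, ZNF418, ZNF544 and ZNF587 had none.

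**Figure D3:**
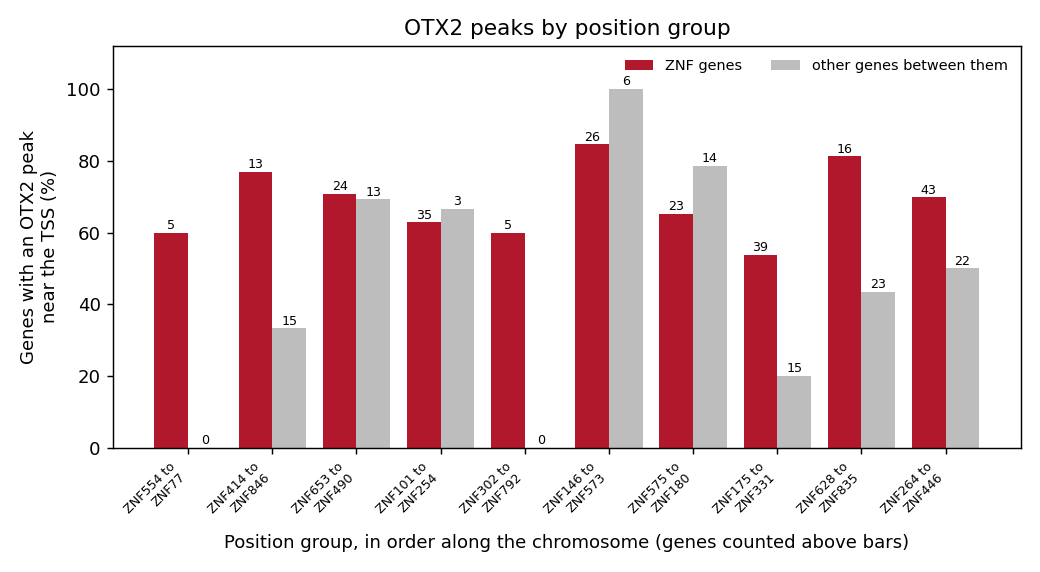
Share of genes, in percent, whose TSS window holds an OTX2 peak, in the 10 position groups with at least 5 ZNF genes, for the ZNF genes and for the other genes between them, with the number of genes above each bar. ZNF shares run from 53.8% to 84.6%, and the shares of the genes between them run from 20.0% to 100%, with 2 groups holding no such gene.

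The group from ZNF101 to ZNF254 (chr19:19668796-24033405) held both strong peaks and a long stretch with none. Its 22 ZNF genes with a peak, of 35, had a median fold of 7.12 and 62 fragments, and it holds ZNF737, ZNF93, ZNF626, ZNF675 and ZNF738. The stretch without a peak spans 969 kb, chr19:22106515-23075605, with the TSSs of 8 ZNF genes and of 0 other protein-coding genes. How reads that align to several copies were handled is not given, and its part in this stretch was not tested. The chromosome had 2 longer stretches between neighbouring peaks, each with the TSS of 0 protein-coding genes. Whether reads could be placed in these 2 was not examined. The next shorter stretch, of 432 kb, held 12 other genes and 0 ZNF genes. The 5 widest distances from the window of a ZNF gene to the nearest peak were all found in the stretch of 969 kb. They were 439 kb for ZNF492, 424 kb for ZNF98, 286 kb for ZNF99, 241 kb for ZNF723 and 175 kb for ZNF729. ZNF676 and ZNF728 lay 107 and 67.4 kb from a peak. ZNF730, with its TSS at the edge, had a weak peak of fold 3.14 at 783 bp downstream. Over all 77 ZNF genes without a peak the median distance was 18.7 kb (range 0.705 to 439 kb), and 13 were within 5 kb.

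Along the body of the gene OTX2 summits were sparser in ZNF genes than in the other genes of the chromosome as a whole. From the midpoint of the gene to its 3′ end, 42 ZNF genes (17.3%) had at least 1 summit, against 22.9% of all protein-coding genes of the chromosome and 42.5% of all protein-coding genes, whose median lengths were 15894 bp and 27601.5 bp. For the other genes of the chromosome the number was 295 (24.0%), and for those between ZNF genes the share was 33.6%. Outside the TSS windows of all genes the numbers were 37 ZNF genes (15.2%) and 242 other genes (19.7%). ZNF genes had 90 summits in this 3′ portion, or 2.33 per 100 kb, against 506 and 3.47. The 5′ portion held 3.83 and 5.61 per 100 kb. These are values per length, and ZNF genes were longer at the median, 25706 against 13946.5 bp. In the genes between ZNF genes the values were 3.76 in the 3′ portion and 3.66 in the 5′ portion, the latter below that of the ZNF genes.

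ZNF536 alone held 30 of the 90 summits, and without it the ZNF genes had 60, or 1.66 per 100 kb. In each of 4 classes of length a smaller share of ZNF genes had such a summit, with 4.00% against 9.95% up to 10 kb, 7.35% against 19.6% from 10 to 20 kb, 12% against 31.3% from 20 to 40 kb, and 48.0% against 53.3% above 40 kb. With each gene cut into 10 equal segments, the first held 9.19 summits per 100 kb in ZNF genes and 10.3 in other genes, and the other segments held 1.42 to 2.85 and 2.98 to 4.97. A segment covers more bases in a longer gene. Counted per gene, the first 500 bp downstream of the TSS held more summits in ZNF genes, 11.9 against 9.20 per 100 genes. The part of gene length in the first segment was not tested.

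**Figure D4:**
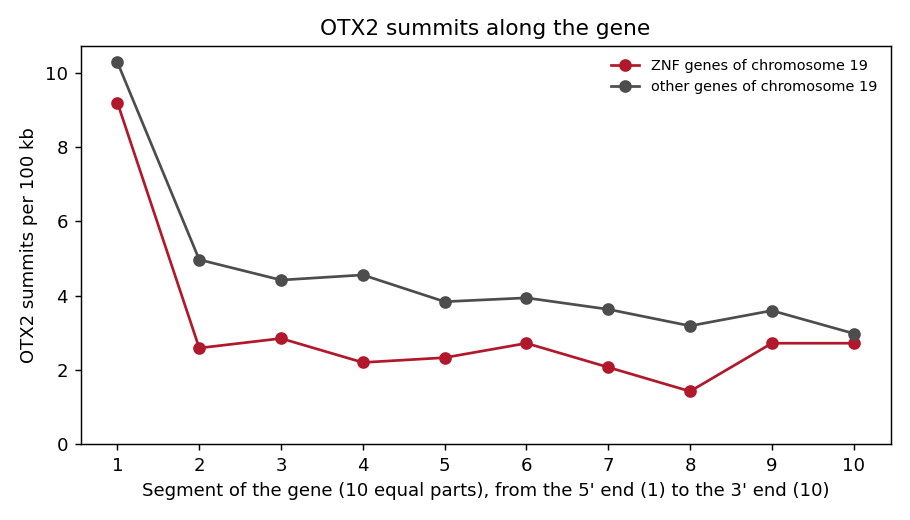
OTX2 summits per 100 kb in 10 equal segments of the gene, from the 5′ to the 3′ end, for 243 ZNF genes and 1228 other genes of chromosome 19. The first segment holds 9.19 and 10.3 summits per 100 kb, and the line of the ZNF genes stays below that of the other genes in all 10 segments. Values are per length, and ZNF genes are the longer at the median.

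The longest coding exon, which in most ZNF genes encodes the fingers, was almost free of summits in both lists. It held a summit in 3 of 243 ZNF genes (1.23%), namely ZNF780B with a fold of 27.9, ZNF699 with 5.29 and ZNF846 with 2.53, and in 4 of 1228 other genes (0.326%). This exon averages 1561 bp in ZNF genes and 532 bp in the others. Per length the numbers were 0.791 and 0.612 summits per 100 kb, both below the level of each of the 10 segments.

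For genes with a summit in the 3′ portion outside all TSS windows, the strongest had a median fold of 9.26 with 70 fragments in ZNF genes, against 6.87 with 53 in the other genes of the chromosome. It was 8.16 in genes between ZNF genes and 8.29 with 75 fragments in ZNF genes elsewhere. Over all protein-coding genes it was higher than in the ZNF genes, 10.2 with 87 fragments. ZNF112 had the highest fold of all 2488 peaks of the chromosome, 46.9 with 361 fragments (interval 325 to 400), in an intron at chr19:44330415-44331613, 36.1 kb from the TSS. The window at its GENCODE TSS held no peak, but a RefSeq promoter of ZNF112 held a summit with a fold of 14.7 (115 fragments). ZNF586 had 42.8 (289 fragments) in an intron 31.4 kb from the TSS, beside a promoter peak of 3.59. ZNF536 had 33.8 (288 fragments) in an intron 439 kb from the TSS, and ZNF254 had 29.2 (197 fragments) 70.0 kb from it, with 4.18 at its promoter. ZNF780B had its peak of 27.9 (188 fragments) in the coding exon, against 5.19 at the TSS. At ZNF574 the peak of 24.7 is internal to the GENCODE gene but lies at a RefSeq start, as printed above, so that its place depends on the annotation. ZNF227 and ZNF235 overlap and share 1 intronic peak of 19.8 (133 fragments) at chr19:44232334-44233002. The 8 genes were chosen for the height of this inner peak. In the 6 of them that also had a peak near the TSS, the inner peak was the higher one, with 6.84 near the TSS of ZNF536, 3.41 at ZNF227 and 5.18 at ZNF235.

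The genes of corepressors through which KRAB proteins act also had peaks. Of 23 listed genes 17 (73.9%) had a peak near the TSS, against the 57.2% of all protein-coding genes given above. TRIM28, which lies on chromosome 19 next to the last ZNF cluster, had a fold of 4.52 (54 fragments) at 24 bp upstream, and SETDB1 had 6.75 (118 fragments) at 85 bp downstream. The heterochromatin protein genes CBX5 and CBX3 had 14.9 (134 fragments) and 14.2 (95 fragments), CBX1 had 6.18, and CBX5 had 6 peaks in its window. The summit at CBX5 lay 2963 bp downstream, outside the window that its peak overlaps, and that at CBX3 117 bp upstream. CHD4, the helicase of the NuRD complex, had the highest fold of the list at 20.3 (136 fragments), with its summit 1923 bp upstream. The remodeller SMARCAD1 had 11.8, with its summit 2171 bp downstream and so also outside the window. CHD3, DNMT3A, HDAC2, MORC2, TASOR and UHRF1 had none.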

How the data were processed

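Per the labels and the study's methods, the authors mapped the reads of 1 OTX2 ChIP library and 1 input library to GRCh38 with Bowtie2 2.2.4 and called peaks with MACS2 2.1.0.20140616. The methods state a masking of ENCODE blacklist regions, but the numbering of the deposited peaks is unbroken and shows no trace of it. In the deposited list, pileup is the height of the signal where a peak is highest, with the deeper ChIP library scaled down by MACS2. Fold enrichment, as deposited, is the ratio of this height to the local input after 1 was added to both. The authors also give −log10 of each p-value and q-value, of which the q-value was used. Each fragment added 0.735 to the pileup, and 100% of pileups were whole fragments within 0.02. The input is the shallower library and limits the precision of fold enrichment. Handling of reads that align to several copies is not given in the sources used here.

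Gene positions were the GRCh38 exon positions recorded in GENCODE release 44, with the TSS at the 5′ end of the gene record. Intervals on fragments are exact Poisson, 95%, and cover counting error only. The members and lists were chosen with earlier results of these data known. Genes named were the 10 with the highest fold near the TSS, the 5 with the most peaks, the 8 with the highest fold in the 3′ portion, the 5 farthest from a peak, and 11 with a known role. Ties at the cutoffs were left out. ZNF581 and ZNF799 also had 3 peaks near the TSS, and ZNF749 had a fold of 19.8 in the 3′ portion, equal to ZNF227 and ZNF235. Other genes named with values were chosen after their values were seen. Planned protein features were not analysed here. Counting was tested on simulated peaks, where 200 of 200 genes given a peak were found. Alternatives covered peak thresholds, window, annotation, gene list and gene length. Tables were handled in pandas 2.3.3 and numpy 2.4.6 under Python 3.11.15, intervals came from scipy 1.17.1, and figures from matplotlib 3.10.9.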

Additional observations from a re-analysis of the deposited data

How the results depend on the processing

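With 1 library of each kind no replicate could be left out and no result has a test, so a share was taken as moved when it left its 95% binomial interval. That interval treats genes as independent draws, which they are not. It served only as a yardstick of size and not as the error of a share. The share of ZNF genes with a peak near the TSS, 68.3%, became 60.5% at a −log10 q of at least 5, 42.8% at a fold of at least 5 and 75.7% with any transcript TSS. Its difference from the other genes of the chromosome, 13.8 percentage points, became 5.66 at a fold of at least 5 and 20.2 for genes with a window of their own, and stayed above 0 under all 10 alternatives. The share with a summit in the 3′ portion, 17.3%, became 12.8% at a fold of at least 5 and 11.1% when the 3′ portion began later, at 2/3 of the gene. Other alternatives were chosen after seeing the data. In genes over 20 kb this share was 24.0%, and the difference from the other genes, −6.74 points, became −16.7, or −14.4 without summits near a TSS, and −16.3 against genes between ZNF genes. It stayed below 0 under all 10 alternatives. Within these alternatives neither difference changed sign. Outside them the order near the TSS turned at a fold of at least 10, with 9.47% of ZNF genes against 14.2%, and in genes above 40 kb, with 58.0% against 59.9%. The count by length was made only at the 5′ end of the gene record. No paired analysis was possible because there is 1 library per group and no result comes from a test.

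The depth of the input and a single ChIP library limit what single folds show. Absence of a peak says only that none passed the calling threshold at this depth. Mapping in duplicated sequence was not tested.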
